A study of Mus musculus with 45 samples.

Results

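The p53 pathway and the cyclin-dependent kinase inhibitors were followed in the translated mRNA of mouse kidney tubules through 10 listed genes. They are Trp53, which encodes p53, its inhibitor Mdm2, the p53 targets Cdkn1a, Ccng1 and Plk2, and the kinase inhibitor genes Cdkn1b, Cdkn1c, Cdkn2a, Cdkn2b and Cdkn2c. All 10 had a row among the 55401 genes of the count tables. Of these, 9 also passed the filter on low counts that the TPM tables of both sexes rest on, and Cdkn2a did not. In translating ribosome affinity purification (TRAP) the ribosomal protein L10a bears an EGFP tag by which ribosomes are pulled down. The pulldown is thus directed at mRNA on the ribosomes of cells that Cre had recombined, although markers of other cell types were counted too.

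Each of the 45 libraries came from 1 mouse at 7 weeks of age (postnatal day 49). Every mouse was hemizygous for R26Rpl10a, Pax8rtTA and TetOCre and had been given doxycycline by mouth from postnatal day 28 to 42. Noncystic mice (8 males and 7 females) were Pkd1fl/+, so 1 Pkd1 allele of these controls is also open to Cre, although the labels call them wild type. Pkd1KO mice (7 males and 8 females) were Pkd1fl/fl, and Pkd1KO+ciliaKO mice (9 males and 6 females) were Pkd1fl/fl; Kif3afl/fl. Pax8rtTA directs Cre, and with it both the deletion and the tag, to kidney tubule cells. A library pools all tubule segments of a mouse, so more cells making an mRNA and more mRNA per cell cannot be told apart.

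p53 is a transcription factor that is held low mainly by degradation of the protein, which the ubiquitin ligase Mdm2 brings about, and Mdm2 is itself a p53 target. After DNA damage and other stresses p53 accumulates and induces Cdkn1a (p21), an inhibitor of cyclin-dependent kinases that halts the cell cycle, together with Ccng1 and Plk2. The inhibitors fall into the Cip/Kip family (Cdkn1a, Cdkn1b and Cdkn1c), which binds cyclin and kinase complexes, and the INK4 family (Cdkn2a, Cdkn2b and Cdkn2c), which binds Cdk4 and Cdk6 and keeps them from D-type cyclins.

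The bases just before the transcription start of Cdkn1a, Mdm2, Ccng1 and Plk2 are shown because these genes are known p53 targets whose levels are set side by side here. The sequences are the 250 bases before the RefSeq start of each gene in GRCm38.p6, read 5′ to 3′ on the strand of the gene. Capitals mark each 10-base match to the p53 half-site consensus, which reads the same on both strands. They lie at chr17:29090729-29090978 (plus strand) for the upstream start of Cdkn1a, chr10:117710759-117711008 (minus strand) for Mdm2, chr11:40755287-40755536 (minus strand) for Ccng1 and chr13:110394794-110395043 (plus strand) for Plk2.
Cdkn1a: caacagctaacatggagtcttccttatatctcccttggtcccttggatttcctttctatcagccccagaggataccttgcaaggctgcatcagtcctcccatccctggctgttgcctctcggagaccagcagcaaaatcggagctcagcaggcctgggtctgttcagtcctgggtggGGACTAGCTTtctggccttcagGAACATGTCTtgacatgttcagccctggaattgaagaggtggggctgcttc
Mdm2: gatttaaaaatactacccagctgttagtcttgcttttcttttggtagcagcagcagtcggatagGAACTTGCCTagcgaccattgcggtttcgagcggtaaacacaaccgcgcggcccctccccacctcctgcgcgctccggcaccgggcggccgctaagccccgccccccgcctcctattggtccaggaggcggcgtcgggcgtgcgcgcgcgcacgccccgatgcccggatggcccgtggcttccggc
Ccng1: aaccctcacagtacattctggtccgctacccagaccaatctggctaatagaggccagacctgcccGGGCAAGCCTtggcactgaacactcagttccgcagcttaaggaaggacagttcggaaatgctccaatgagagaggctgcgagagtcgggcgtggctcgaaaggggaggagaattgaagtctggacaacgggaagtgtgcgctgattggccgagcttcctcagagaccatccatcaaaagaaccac
Plk2: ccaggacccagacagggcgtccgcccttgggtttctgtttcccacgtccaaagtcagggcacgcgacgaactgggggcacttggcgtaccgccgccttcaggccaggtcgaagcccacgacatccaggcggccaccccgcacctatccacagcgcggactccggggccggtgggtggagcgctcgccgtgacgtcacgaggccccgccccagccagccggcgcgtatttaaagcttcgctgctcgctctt

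Before the upstream start of Cdkn1a, the window held 2 half-sites, at bases -73 to -64 and -51 to -42 from the start, with 12 bases between them. Mdm2 and Ccng1 held 1 half-site each, at bases -186 to -177 and -185 to -176, and Trp53 held 1 at bases -75 to -66. No match was found before Plk2, nor before the second listed start of Cdkn1a. In all, 9 of the 10 genes had an entry among the 32851 promoters of the RefSeq table, with 12 starts, and 4 of these 12 windows held a half-site. Of all windows in the table, 7.13% held a half-site and 0.0639% (21 windows) held a pair no more than 13 bases apart. A match describes the letters of the window and is not evidence of binding.

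The gene counts of a mouse summed to 80874556 at the lowest and 132958186 at the highest. A chi-square test found no pair alike within sampling noise among the 149 pairs of a shared group (lowest chi-square per degree of freedom 51.0). Levels are given below as normalized CPM, that is, CPM scaled by edgeR's TMM method over the 45 mice, with the SD between mice. Kif3a went against the label in 2 libraries. The library labelled noncystic female replicate 5 had 6.69 CPM of Kif3a, where the other 6 noncystic females had 23.2 to 25.3. The library labelled Pkd1KO+ciliaKO female replicate 6 had 20.7, where the other 5 had 6.56 to 8.47. The genotype tests of members and the list counts in females are therefore also given without both where that changes a call. In a principal component analysis of log2(TPM + 1), 4 male libraries (noncystic replicate 3, Pkd1KO replicate 4 and Pkd1KO+ciliaKO replicates 6 and 8) scored on the side of the females along the first component, and counts of called genes in males are also given without them where they change. Pkd1 itself, counted over the whole gene, had 36.3 to 84.9 CPM in noncystic males and 33.2 to 49.8 in Pkd1KO males, which overlap. The tubule markers were present in every group, with a summed level of 5 proximal tubule markers between 4087 and 10341 CPM per mouse. Markers of fibroblasts (3 genes) and endothelium (4 genes) were counted as well, with mean sums of 167 and 90.2 CPM in noncystic males.

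Per length of transcript, the deposited TPM values put Ccng1 far above the other genes in every group. In noncystic males the median was 386 TPM for Ccng1 (350 to 516 over 8 mice) and 35.5 TPM for Mdm2 (32.1 to 51.7), which do not overlap. Below these came Cdkn1b with a median of 27.4 TPM, Trp53 with 18.3, Cdkn2c with 17.4, Cdkn1a with 14.3 and Plk2 with 12.6. Cdkn2b and Cdkn1c were lowest, with medians of 7.16 and 6.72 TPM. Each neighbouring pair in this order overlapped between mice, except Ccng1 and Mdm2, and Cdkn1b (23.9 to 34.1 TPM) and Trp53 (17.6 to 22.1 TPM). In Pkd1KO males Cdkn1a stood higher in the order, with a median of 33.3 TPM (17.0 to 76.4), next to Mdm2 with 36.3 (28.3 to 44.8).

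**Figure D1:**
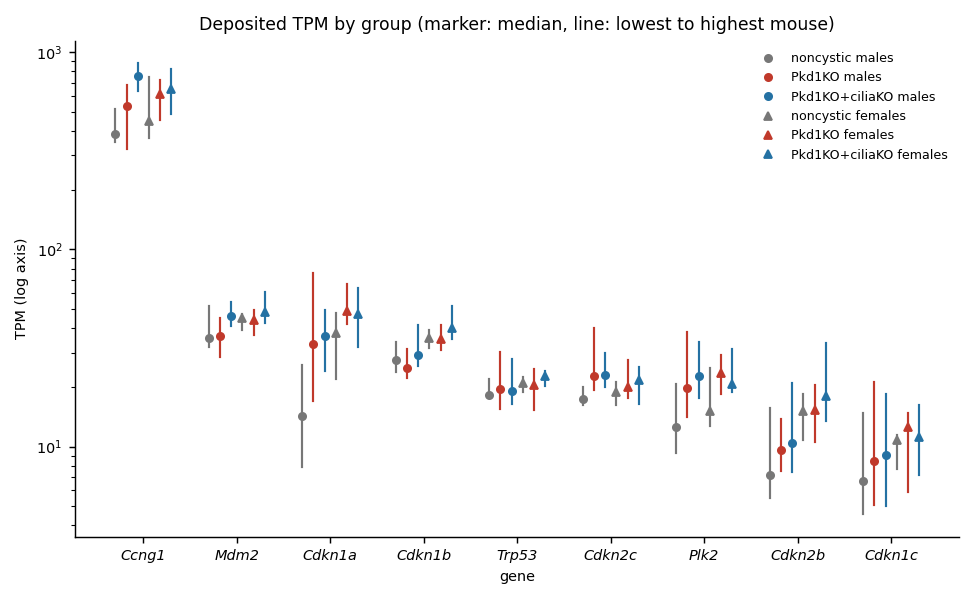
Deposited TPM (log axis) of the 9 genes past the filter in each of the 6 groups, as the median (marker) and the lowest to highest mouse (line). Ccng1, with group medians from 386 to 759 TPM, lies above all other genes in every group, and Cdkn1a moves from a median of 14.3 TPM in noncystic males to 33.3 in Pkd1KO males.

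Cdkn2a, which encodes the INK4 inhibitor p16 and, from another reading frame, the Mdm2 inhibitor Arf, was at the edge of detection. It had 105 counts over all 45 mice, no count in 9 of them, at most 3 counts in 35 and no more than 10 in any mouse. The 10 counts were in Pkd1KO male replicate 4. Taking 3 counts as the limit behind a count of 0, a level below 0.0226 CPM in the largest library, or 0.0371 CPM in the smallest, could go unseen. The gene lies at chr4:89274471-89294653 and its neighbour Cdkn2b lies 11646 bases further on. No test was made for Cdkn2a, since fewer than 20% of the mice of either sex had 6 counts, and its p16 and Arf transcripts are not separated in a count per gene.

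Trp53 (ENSMUSG00000059552.13, chr11:69580359-69591873) was called in none of the 6 comparisons. It had 24.4, 25.7 and 28.0 CPM (lowest, median, highest) in 8 noncystic males, 25.3, 26.5 and 36.04 in 7 Pkd1KO males and 22.0, 24.8 and 29.2 in 9 Pkd1KO+ciliaKO males. The ranges overlapped throughout, and 1 mouse, Pkd1KO male replicate 4, was above all others with 36.04. In females the medians were 26.3, 24.8 and 25.6 CPM in the same order of genotypes. Its log2 fold changes lay between -0.07 and 0.15, and the smallest adjusted p was 0.326, for Pkd1KO against Pkd1KO+ciliaKO males (0.15, SE 0.08).

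Throughout, a gene is called changed when its p in edgeR's quasi-likelihood test, adjusted by Benjamini-Hochberg over all genes past the filter, does not exceed 0.05. The 3 comparisons within a sex share groups, so their calls are not independent of each other. In males, 3 of the 9 genes tested were called in Pkd1KO against noncystic mice, all higher (Cdkn1a, Plk2 and Cdkn2c), where 6.30% of all 15991 genes were called. Against the same noncystic males, Pkd1KO+ciliaKO males also had 3 called genes, again all higher (Ccng1, Cdkn1a and Plk2), where 8.89% of all genes were called. Between Pkd1KO and Pkd1KO+ciliaKO males edgeR called 0 of the 9, where 3.77% of all genes were called; 2 of the 9 (Mdm2 and Ccng1) had an unadjusted p under 0.05, as did 19.7% of all genes, and DESeq2 called those 2. In females Plk2 alone was called in Pkd1KO against noncystic mice, where 3.34% of all 15968 genes were called. None of the 9 was called by edgeR in Pkd1KO against Pkd1KO+ciliaKO females (0 with an unadjusted p under 0.05, against 27.7% of all genes, and 0 by DESeq2), where 11.7% of all genes were called, or in Pkd1KO+ciliaKO against noncystic females (1, Ccng1, with an unadjusted p under 0.05, against 21.4% of all genes, and 0 by DESeq2), where 2.54% were. The median log2 fold change of the 9 genes was 0.37 in Pkd1KO and 0.31 in Pkd1KO+ciliaKO against noncystic males, where the medians of all genes were -0.01 and 0.01. It was 0.15 and 0.11 in the same comparisons in females, where those of all genes were -0.000832 and 0.00886.

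**Figure D2:**
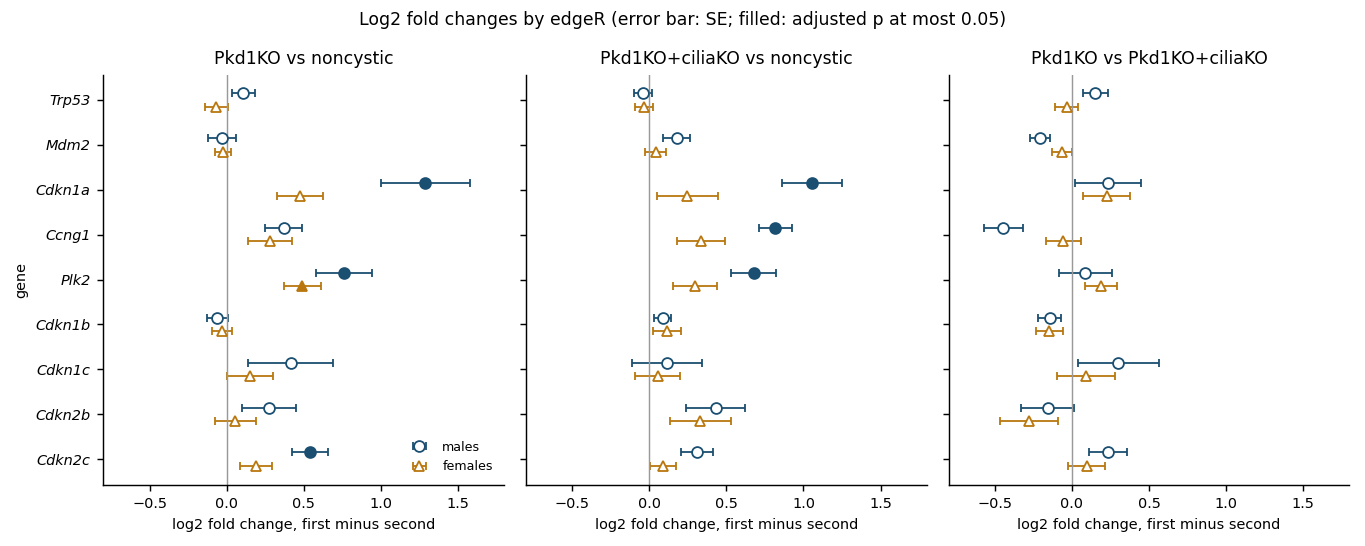
Log2 fold changes (horizontal axis) of the 9 genes tested (points) with SE (error bars) in the 3 comparisons of genotypes, males as circles and females as triangles; filled symbols passed an adjusted p of 0.05 in edgeR. The filled symbols are Cdkn1a, Plk2 and Cdkn2c and then Ccng1, Cdkn1a and Plk2 for males against noncystic males, and Plk2 for Pkd1KO against noncystic females.

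Cdkn1a (ENSMUSG00000023067.14, chr17:29090976-29100727), the p21 gene whose paired half-sites are printed above, was higher in both mutant groups of males. It had 10.2, 17.2 and 31.9 CPM (lowest, median, highest) in noncystic males, 25.2, 40.1 and 79.8 in Pkd1KO males and 31.9, 40.9 and 53.1 in Pkd1KO+ciliaKO males. Of the 7 Pkd1KO males 5 exceeded every noncystic male, with replicates 3 and 4 near 79 CPM, and 8 of the 9 Pkd1KO+ciliaKO males did. The mean rose from 19.8 ± 7.86 (SD, n = 8) to 48.3 ± 22.4 (n = 7), a log2 fold change of 1.29 (SE 0.29, 2.44-fold, adjusted p = 0.0127 in edgeR and 0.0531 in limma on log2(TPM + 1), which ends the call). In Pkd1KO+ciliaKO males it was 41.1 ± 6.97 (n = 9), a log2 fold change of 1.05 (SE 0.20, 2.08-fold, adjusted p = 0.00237). The mutant groups did not pass the threshold against each other (0.23, SE 0.21, adjusted p = 0.575), and their ranges overlapped.

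In females Cdkn1a had 23.0, 39.6 and 54.2 CPM in noncystic mice, 46.7, 52.3 and 69.4 in Pkd1KO mice and 31.0, 45.7 and 68.6 in Pkd1KO+ciliaKO mice. The noncystic females were thus already at the level of the mutant males, and 4 of 8 Pkd1KO females exceeded all of them. The log2 fold change of Pkd1KO against noncystic females was 0.47 (SE 0.15) with an adjusted p of 0.0960 in edgeR and 0.0390 in DESeq2. Without both libraries whose Kif3a went against the label it was 0.51 (adjusted p = 0.0937 in edgeR). For Pkd1KO+ciliaKO against noncystic females it was 0.25 (SE 0.20, adjusted p = 0.504). The effect was larger in males than in females by 0.82 on the log2 scale for Pkd1KO and 0.81 for Pkd1KO+ciliaKO mice. In the edgeR test of the interaction of sex and genotype these differences had unadjusted p-values of 0.0115 and 0.0136 and adjusted p-values of 0.432 and 0.721, so they did not pass the threshold. No member passed it in any of the 3 interactions, where 0.0126%, 0.221% and 0.0316% of 15828 genes did; 2, 1 and 2 members had an unadjusted p under 0.05, against 8.08%, 7.94% and 5.49% of all genes, and DESeq2 called 0 in each.

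**Figure D3:**
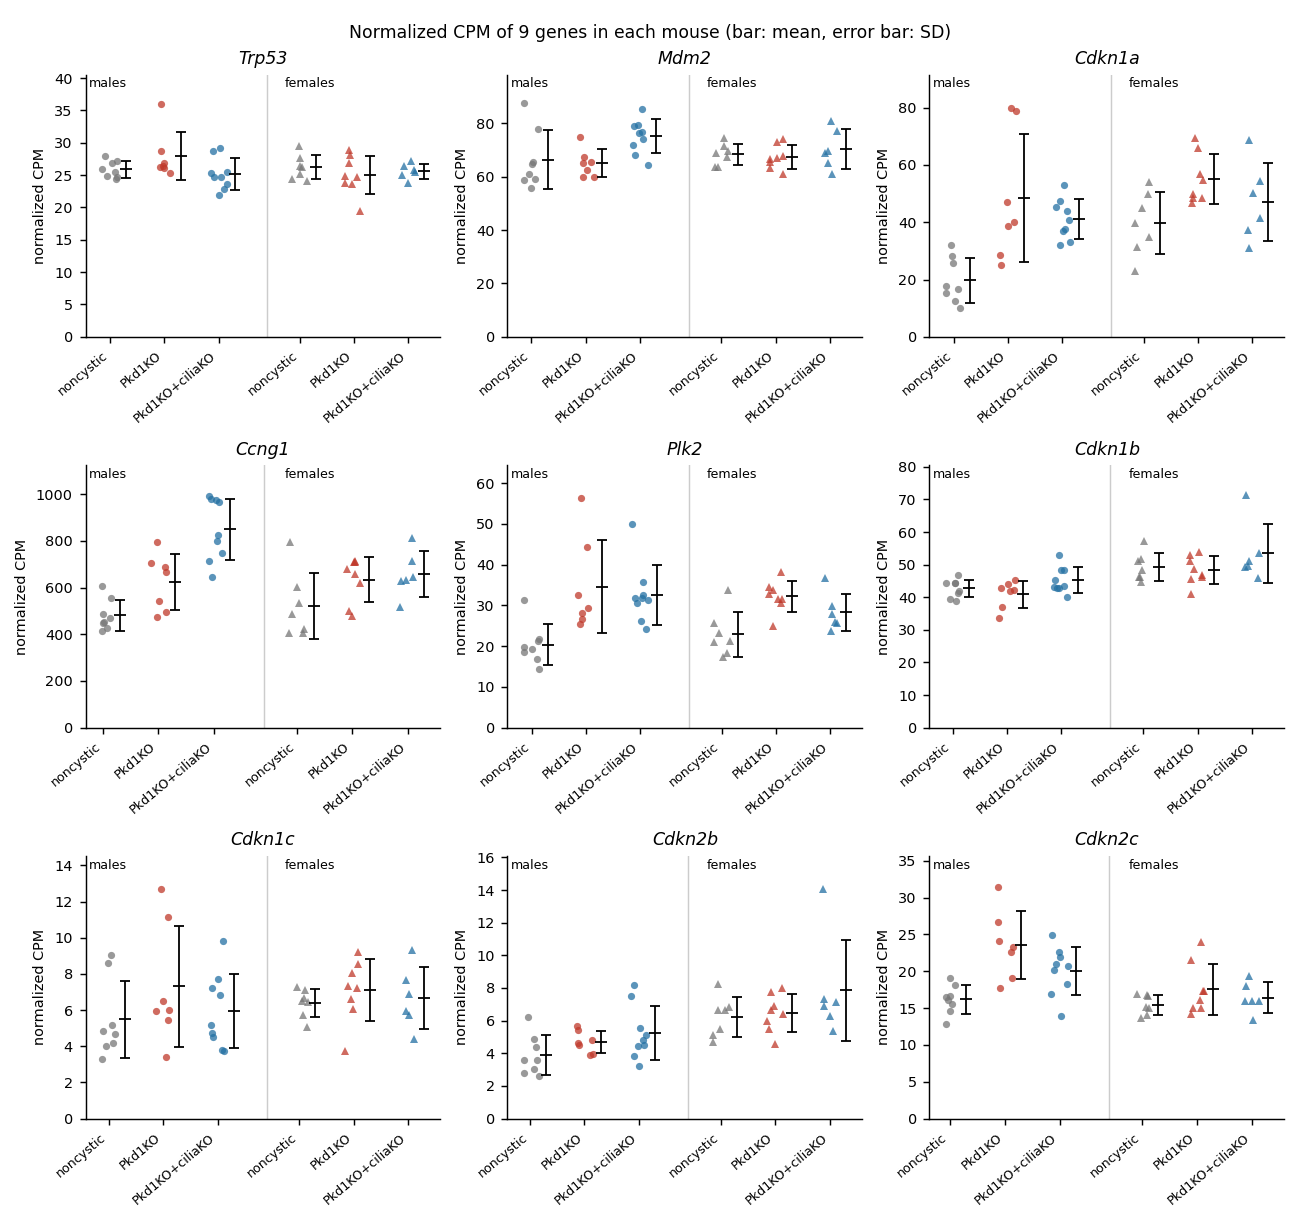
Normalized CPM of the 9 genes tested in each of the 45 mice (circles: males, triangles: females; black: mean and SD) by genotype. All 9 Pkd1KO+ciliaKO males lie above all 8 noncystic males for Ccng1, 5 of 7 Pkd1KO males lie above them for Cdkn1a and Cdkn2c, and the groups of each sex overlap for Trp53, Mdm2 and Cdkn1b.

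Ccng1 (ENSMUSG00000020326.7, chr11:40748552-40755311), which encodes cyclin G1, a p53-induced partner of a phosphatase that acts on Mdm2, was called in Pkd1KO+ciliaKO males. It had 413, 461 and 606 CPM in noncystic males, 475, 668 and 793 in Pkd1KO males and 644, 824 and 990 in Pkd1KO+ciliaKO males. All 9 Pkd1KO+ciliaKO males lay above all 8 noncystic males, a separation that 1.06% of all genes showed in this comparison. The log2 fold change was 0.82 (SE 0.11, 1.76-fold, adjusted p = 9.09e-05). In Pkd1KO males it was 0.37 (SE 0.12), with an adjusted p of 0.0789 in edgeR, and 4 of 7 mice exceeded every noncystic male. DESeq2 called Ccng1 there (0.38, adjusted p = 0.0293), as did edgeR without noncystic male replicate 8 (adjusted p = 0.0420) or without Pkd1KO male replicate 2 (adjusted p = 0.0373), and over all alternatives its adjusted p ran from 0.0293 to 0.264. Pkd1KO males had less Ccng1 than Pkd1KO+ciliaKO males, by a log2 fold change of -0.45 (SE 0.13) that just missed the threshold (adjusted p = 0.0552). DESeq2, limma voom, the fit of all 3 genotypes and limma on TPM each called this difference, and over all alternatives its adjusted p ran from 0.00238 to 0.0770.

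In females Ccng1 had 403, 488 and 794 CPM in noncystic, 478, 668 and 712 in Pkd1KO and 517, 639 and 814 in Pkd1KO+ciliaKO mice. The highest noncystic female, with 794 CPM, was the library labelled replicate 5, which is one of the pair whose Kif3a went against the label. The log2 fold change of Pkd1KO+ciliaKO against noncystic females was 0.33 (SE 0.15, adjusted p = 0.225) with all libraries and 0.48 (SE 0.13, adjusted p = 0.0494) without that pair, so the call depends on them. For Pkd1KO against noncystic females it was 0.28 (adjusted p = 0.339) with them and 0.42 (adjusted p = 0.0623) without. Ccng1 lies 12.8 Mb from Kif3a on chromosome 11, where the Pkd1KO+ciliaKO mice carry floxed alleles, so flanking DNA and the loss of Kif3a cannot be told apart for it.

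Plk2 (ENSMUSG00000021701.8, chr13:110395046-110400844), a polo-like kinase of centriole duplication that p53 induces under stress, was higher in both mutant groups of males and in Pkd1KO females. It had 14.4, 19.5 and 31.3 CPM in noncystic males, 25.3, 29.3 and 56.4 in Pkd1KO males and 24.1, 31.7 and 49.8 in Pkd1KO+ciliaKO males. All noncystic males but 1 (replicate 8, with 31.3) were below every mutant male. The log2 fold changes were 0.76 (SE 0.18, 1.70-fold, adjusted p = 0.0203 in edgeR) for Pkd1KO and 0.68 (SE 0.15, 1.60-fold, adjusted p = 0.00669) for Pkd1KO+ciliaKO males. The call in Pkd1KO males is lost in limma on log2(TPM + 1), with an adjusted p of 0.0907, and on log2(TPM + 0.1), with 0.0751. Between the mutant groups the log2 fold change was 0.09 (SE 0.17, adjusted p = 0.817).

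In females Plk2 had 17.5, 21.3 and 33.7 CPM in noncystic, 24.9, 32.1 and 38.2 in Pkd1KO and 23.7, 26.9 and 36.7 in Pkd1KO+ciliaKO mice. Again the highest noncystic female was the library labelled replicate 5, and 3 of 8 Pkd1KO females exceeded it. The log2 fold change of Pkd1KO against noncystic females was 0.49 (SE 0.12, 1.41-fold, adjusted p = 0.0320). With the replicate number as a block it was 0.50, with an adjusted p of 0.113, so this call is lost in that fit, and it was also lost in 10 of 15 fits that each left out 1 mouse. Without both libraries whose Kif3a went against the label it was 0.61 (SE 0.10, adjusted p = 0.00177). For Pkd1KO+ciliaKO against noncystic females it was 0.30 (adjusted p = 0.242), and 0.42 without that pair (adjusted p = 0.0658).

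Mdm2 (ENSMUSG00000020184.15, chr10:117688875-117710758), both the inhibitor of p53 and one of its targets, was called by edgeR in none of the 6 comparisons. It had 55.7, 62.9 and 87.7 CPM in noncystic males, 60.0, 65.0 and 74.99 in Pkd1KO males and 64.5, 76.4 and 85.5 in Pkd1KO+ciliaKO males. The ranges of all 3 groups overlapped. The log2 fold change was -0.03 (SE 0.09, adjusted p = 0.885) for Pkd1KO against noncystic males and 0.18 (SE 0.09, adjusted p = 0.217) for Pkd1KO+ciliaKO against noncystic males. Pkd1KO males had a log2 fold change of -0.21 (SE 0.06, adjusted p = 0.0783) relative to Pkd1KO+ciliaKO males in edgeR, a difference that DESeq2, limma voom and limma on TPM called. In females the medians were 68.7, 66.8 and 69.3 CPM in noncystic, Pkd1KO and Pkd1KO+ciliaKO mice, and no adjusted p was below 0.547.

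Among the INK4 inhibitors, Cdkn2c (ENSMUSG00000028551.14, chr4:109660876-109667189), which encodes p18, was the one called. It had 12.9, 16.3 and 19.1 CPM in noncystic males, 17.7, 23.3 and 31.5 in Pkd1KO males and 14.0, 20.7 and 24.9 in Pkd1KO+ciliaKO males. Of the 7 Pkd1KO males 5 were above every noncystic male. The log2 fold change was 0.54 (SE 0.12, 1.45-fold, adjusted p = 0.00935) for Pkd1KO and 0.31 (SE 0.10, adjusted p = 0.0686) for Pkd1KO+ciliaKO males. Without the 4 males that scored towards the females the latter was 0.35 (adjusted p = 0.00572). In females the medians were 15.2, 16.7 and 15.95 CPM in noncystic, Pkd1KO and Pkd1KO+ciliaKO mice, and no comparison passed the threshold.

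Cdkn2b (ENSMUSG00000073802.5, chr4:89306299-89311039), which encodes p15, was low, with medians of 3.58, 4.61 and 4.83 CPM in noncystic, Pkd1KO and Pkd1KO+ciliaKO males and 6.63, 6.54 and 7.03 in females. Its largest difference, Pkd1KO+ciliaKO against noncystic males, was 0.43 on the log2 scale (SE 0.19, adjusted p = 0.179). Cdkn1b (ENSMUSG00000003031.14, chr6:134920401-134925513), which encodes p27, varied least among the inhibitors, with group medians between 42.2 and 50.4 CPM and log2 fold changes from -0.15 to 0.11. Cdkn1c (ENSMUSG00000037664.13, chr7:143458339-143461050), the imprinted p57 gene, had group medians between 4.75 and 7.28 CPM, and its largest difference, in Pkd1KO against noncystic males, was 0.42 (SE 0.28, adjusted p = 0.406). These 3 genes passed the threshold between genotypes in no comparison.

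At baseline the sexes differed in part of the set. In one edgeR fit of all mice, noncystic males had less Cdkn1a than noncystic females, with means of 19.8 and 39.7 CPM and a log2 fold change of -1.01 (SE 0.22, adjusted p = 5.12e-04). The 8 males had at most 31.9 CPM and 5 of the 7 females had more. Cdkn2b was lower in noncystic males by -0.68 (SE 0.19, adjusted p = 0.00499) and Cdkn1b by -0.21 (SE 0.07, adjusted p = 0.0305). The other 6 genes tested did not pass the threshold. These 3 of 9 stand beside 27.4% of all 15828 genes. Without the 2 female libraries and the 4 male libraries named above the log2 fold changes were -1.04, -0.84 and -0.23, and all 3 were called. Of 25 other p53 targets, listed below, 3 were lower in noncystic males, namely Eda2r (-1.002, adjusted p = 7.92e-04), Phlda3 (-0.82, adjusted p = 8.33e-04) and Pmaip1 (-0.83, adjusted p = 0.00130), and 2 were higher, Rrm2b (0.35, adjusted p = 0.00133) and Gadd45a (0.35, adjusted p = 0.0482). These 3 and 2 of 25 stand beside 27.4% of all genes called in either direction, so the list was called no more often than all genes. The summed level of 5 tubule injury markers also differed in range, at 14.2 to 69.7 CPM in noncystic males and 27.8 to 115.8 in noncystic females, and its part in these differences was not tested.

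Other p53 targets were read from a list of 25 genes outside the 10, all of which passed the filter. In males 4 of 25 were called higher and 0 lower in Pkd1KO against noncystic mice, and 4 higher and 0 lower in Pkd1KO+ciliaKO against noncystic mice, where 6.30% and 8.89% of all genes were called in either direction. The 4 were in both cases Eda2r and Tnfrsf10b, which encode receptors of the tumour necrosis factor receptor family, Zmat3, which encodes an RNA-binding protein, and Phlda3, an inhibitor of Akt signalling. Eda2r rose from 1.57 ± 0.45 CPM (SD, n = 8) to 6.01 ± 3.31 in Pkd1KO males (n = 7, log2 fold change 1.93, SE 0.29, adjusted p = 0.00103) and to 4.00 ± 0.89 in Pkd1KO+ciliaKO males (n = 9, 1.34, SE 0.17, adjusted p = 7.73e-05). Zmat3 rose from 98.9 ± 18.9 CPM to 193 ± 48.6 (0.96, adjusted p = 0.00103) and 170 ± 19.2 (0.78, adjusted p = 1.08e-04). For Phlda3 the log2 fold changes were 0.88 (adjusted p = 0.0409) and 0.88 (adjusted p = 0.00187), and for Tnfrsf10b 0.88 (adjusted p = 0.0192) and 0.44 (adjusted p = 0.0404). The median over the 25 genes was 0.13 and 0.15, and 17 and 20 of them had a fold change above 0.

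In females 3 of the 25 were called higher and 0 lower in Pkd1KO against noncystic mice, where 3.34% of all genes were called in either direction. They were Eda2r (log2 fold change 0.86, adjusted p = 0.0124), Zmat3 (0.69, adjusted p = 0.00490) and Tnfrsf10b (0.53, adjusted p = 0.0237). Tnfrsf10b was also the one target called between the mutant groups, at 4.62 ± 0.73 CPM in Pkd1KO+ciliaKO females (n = 6) and 6.71 ± 0.98 in Pkd1KO females (n = 8), a log2 fold change of 0.54 (adjusted p = 0.0113). This 1 of 25 stands beside 11.7% of all genes called in that comparison. There 6 of the 25 had an unadjusted p under 0.05, where 27.7% of all genes had one. Between Pkd1KO and Pkd1KO+ciliaKO males none of the 25 was called by edgeR (4 with an unadjusted p under 0.05, where 19.7% of all genes had one), and none in Pkd1KO+ciliaKO against noncystic females (4, where 21.4% of all genes had one), where 1 was called without the libraries whose Kif3a went against the label. Of all genes 5.80% were called in that comparison without these libraries and 2.54% with them. Without the 4 males that scored towards the females the count in Pkd1KO against noncystic males was 3.

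**Figure D4:**
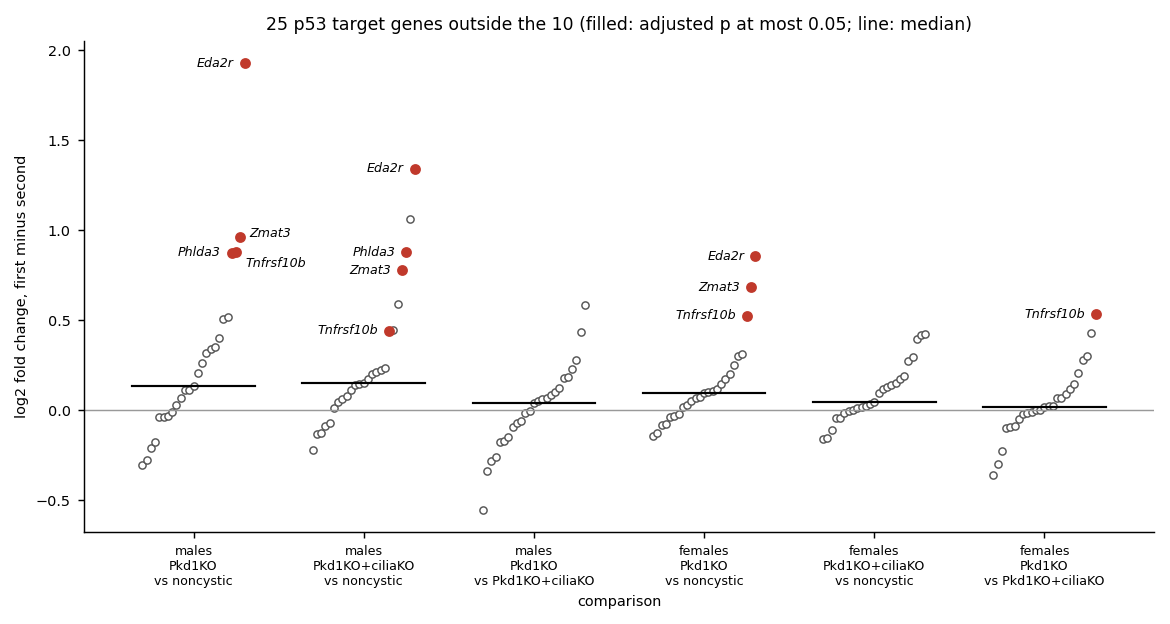
Log2 fold changes (vertical axis) of the 25 listed p53 targets in the 6 comparisons, in rising order within each; filled points passed an adjusted p of 0.05 and the line is the median of the 25. All filled points lie above 0, with 4, 4 and 0 of them in the comparisons of males and 3, 0 and 1 in those of females.

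Upstream of p53, 2 of 19 listed regulators were called in Pkd1KO against noncystic males, both higher: the checkpoint kinase genes Chek1 (log2 fold change 1.202, SE 0.20, adjusted p = 0.00196) and Chek2 (0.28, SE 0.08, adjusted p = 0.0465). Chek1 was also called in Pkd1KO+ciliaKO against noncystic males (0.59, adjusted p = 0.0410). These counts of 2 and 1 of 19 stand beside 6.30% and 8.89% of all genes. Without the 4 males that scored towards the females they were 1 higher in Pkd1KO, and 1 higher and 1 lower in Pkd1KO+ciliaKO males. None of the 19 was called by edgeR between the mutant groups of males (2 with an unadjusted p under 0.05, where 19.7% of all genes had one) or in the 3 comparisons of females. In females 1 had an unadjusted p under 0.05 for Pkd1KO against noncystic (share of all genes not given here), 3 for Pkd1KO against Pkd1KO+ciliaKO (27.7% of all genes) and 5 for Pkd1KO+ciliaKO against noncystic mice (21.4% of all genes), the last being 2 without the libraries whose Kif3a went against the label. The median of the list was -0.06 and -0.03 in these comparisons of males, near the medians of all genes.

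The cyclins and kinases that these inhibitors act on were read from a list of 12 genes. In Pkd1KO against noncystic males 3 of 12 were called, all higher, where 6.30% of all genes were called in either direction. They were Ccnd1, a D-type cyclin of the kinases that INK4 proteins bind (0.66, SE 0.11, adjusted p = 0.00151), Ccne1, a cyclin of Cdk2 (1.24, SE 0.23, adjusted p = 0.00328), and Cks1b, a small kinase subunit that also serves in p27 degradation (0.82, SE 0.17, adjusted p = 0.00913). In Pkd1KO+ciliaKO against noncystic males 5 of 12 were called, all higher and beside 8.89% of all genes, among them Ccnd1 (0.57, adjusted p = 0.00113), Ccne1 (0.68, adjusted p = 0.0160), Cks1b (0.36, adjusted p = 0.0173) and the D-type cyclin gene Ccnd3 (0.22, adjusted p = 0.0319). None was called by edgeR between the mutant groups of males or in females. Between the mutant males 4 had an unadjusted p under 0.05, where 19.7% of all genes had one. In females 1 had one for Pkd1KO against noncystic mice (share of all genes not given here) and 0 for Pkd1KO against Pkd1KO+ciliaKO mice (27.7% of all genes). For Pkd1KO+ciliaKO against noncystic females 3 had one (21.4% of all genes).

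Genes of cycling cells, like Cdkn1a and Plk2, were called higher in both mutant groups of males against noncystic males. In males 9 of 10 listed cycling genes were called higher in Pkd1KO and 8 of 10 in Pkd1KO+ciliaKO mice against noncystic mice, with median log2 fold changes of 1.78 and 0.98 (1.58 and 1.09, with the same counts, without the 4 males that scored towards the females). Of all genes 6.30% and 8.89% were called in these comparisons in either direction. Between the mutant groups of males 0 of 10 were called by edgeR, although 9 had an unadjusted p under 0.05 (median 0.82, higher in Pkd1KO males), and 4 without the 4 males (median 0.45). With all males 3.77% of all genes were called there and 19.7% had an unadjusted p under 0.05. The log2 fold changes of Cdkn1a and Plk2 in that comparison were 0.23 and 0.09. Cdk1, the kinase of mitosis, rose from 2.63 ± 0.81 CPM to 10.03 ± 5.07 in Pkd1KO males (1.93, SE 0.28, adjusted p = 8.10e-04) and to 5.63 ± 1.96 in Pkd1KO+ciliaKO males (1.098, SE 0.22, adjusted p = 0.00434). In females Mki67 was called in Pkd1KO against noncystic mice and Mcm5 against Pkd1KO+ciliaKO mice, and neither list count held without the libraries whose Kif3a went against the label (0 of 10 in both). With all libraries 3.34% and 11.7% of all genes were called in these comparisons. Against noncystic females 9 of 10 had an unadjusted p under 0.05, a count that has no share of all genes beside it here. The median was 0.61 with and without those libraries, with 10 of 10 above 0 and that count in both. Against Pkd1KO+ciliaKO females it was 0.38 with them and 0.32 without, and 3 and 2 of 10 had an unadjusted p under 0.05. With all libraries 27.7% of all genes had one. The summed level of the 10 genes was 89.0 to 137.9 CPM in noncystic, 146.2 to 441.9 in Pkd1KO and 113.9 to 224.5 in Pkd1KO+ciliaKO males. Of the marker lists of other cell types, macrophages (3 genes, of which Csf1r was called higher in Pkd1KO and lower in Pkd1KO+ciliaKO against noncystic males) summed to 63.1 to 90.8 CPM in noncystic, 87.2 to 141.6 in Pkd1KO and 42.0 to 83.8 in Pkd1KO+ciliaKO males. The 3 macrophage markers did not move together in Pkd1KO+ciliaKO against noncystic males, where 2 of 3 were above 0 (median 0.16). Without the 4 males 0 of the 3 were called in Pkd1KO against noncystic males, where the median went from 1.38 to 0.38, and 1 stayed lower in Pkd1KO+ciliaKO males. Tubule injury markers (5 genes, 2 called higher in Pkd1KO and 1 in Pkd1KO+ciliaKO males against noncystic males, and 1 and 3 without the 4 males) summed to 14.2 to 69.7, 23.9 to 160.9 and 29.0 to 59.9 CPM. Mast cell markers (3 genes, 2 of them tested in males, of which Ms4a2 was called higher in both mutant groups) summed to 16.8 to 24.2, 17.1 to 27.0 and 20.01 to 30.05 CPM. Of the 5 proximal tubule markers 1 was called lower in Pkd1KO and 3 in Pkd1KO+ciliaKO males. Of the 2 thick ascending limb markers Slc12a1 was called lower in Pkd1KO males, against noncystic (-0.72, adjusted p = 0.0220) and against Pkd1KO+ciliaKO males (-0.73, adjusted p = 0.0454), and 0 of the 2 were called in either comparison without the 4 males. The 2 markers summed to 2030 to 4076, 1655 to 3023 and 1968 to 3710 CPM in noncystic, Pkd1KO and Pkd1KO+ciliaKO males. Of the 2 distal convoluted tubule markers Pvalb was called higher in Pkd1KO+ciliaKO than in noncystic (1.81, adjusted p = 0.0188) and lower in Pkd1KO than in Pkd1KO+ciliaKO males (-2.37, adjusted p = 0.0139), and their sums were 296 to 496, 209 to 505 and 260 to 510 CPM. The other marker was called in neither comparison. It went the other way in Pkd1KO+ciliaKO against noncystic males, where 1 of the 2 was above 0 (median 0.84). Between the mutant groups 0 of the 2 were above 0 (median -1.24). In males these marker counts stand beside 6.30% and 8.89% of all genes called against noncystic mice, and 3.77% called between the mutant groups. Without the 4 males these shares were 5.72%, 14.0% and 3.93%. In Pkd1KO against Pkd1KO+ciliaKO females 1 thick ascending limb and 1 distal convoluted tubule marker were called lower, and 1 proximal tubule marker higher. These 3 counts were the same without the libraries whose Kif3a went against the label. Of all genes 11.7% were called there with these libraries and 10.4% without. No marker of these lists was at 0 in any group. The part of cycling or other cells in the changes of Cdkn1a, Ccng1, Plk2 and Cdkn2c was not tested.

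Over all 45 mice, with each sex centred on its own mean, the genes most like each member were named by the Pearson correlation of log2 CPM, a description that includes the differences between genotypes and was made with all 45 libraries, the 6 named above included. Cdkn1a was most like Phlda3 (r = 0.89), Inka2 (0.87) and Eda2r (0.86), and Plk2 was most like Eda2r (0.89), Zmat3 (0.88) and Tmem43 (0.86). Cdkn2c was most like Cenpm (0.84), E2f1 (0.83) and Ccdc34 (0.82). For Ccng1 the closest were Tmem184c (0.80), Txnl4a (0.80) and Dscaml1 (0.79), and for Mdm2 they were Otub2, N4bp1 and Txnl4a (each 0.75). The highest correlation of Trp53 was with Ets2 (0.70), then Sh2d3c and Cdca4 (each 0.64). Cdkn1b was closest to Hoxb6 (0.79), Cdkn1c to Epb41l2 (0.80) and Cdkn2b to Litaf (0.80).

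Within the groups, with the mean of each of the 6 groups subtracted, 5 of the 10 pairs among Trp53, Mdm2, Cdkn1a, Ccng1 and Plk2 varied together between mice in a two-sided permutation test (100000 resamples within groups). Mdm2 followed both Cdkn1a (r = 0.54, p = 7.60e-04, adjusted over the 10 pairs 0.00253; Spearman's rho 0.49, p = 0.00197, adjusted 0.00985) and Plk2 (r = 0.53, p = 3.20e-04, adjusted 0.00160; rho 0.44, p = 0.00418, adjusted 0.0139) from mouse to mouse. The r of Mdm2 with Cdkn1a was 0.64 over the 24 males and 0.31 over the 21 females, and 0.53 without the 2 mice farthest from the median of Cdkn1a. Ccng1 went with Plk2 (r = 0.56, permutation p = 2.40e-04, adjusted 0.00160; rho 0.52, adjusted 0.00660). Cdkn1a with Plk2 (r = 0.51, adjusted 0.00702; rho 0.43, adjusted 0.0181) and Mdm2 with Ccng1 (r = 0.38, adjusted 0.0124; rho 0.39, adjusted 0.0198) also passed. Without the 2 farthest mice r was 0.53 for Ccng1 with Plk2, 0.58 for Mdm2 with Plk2, 0.39 for Cdkn1a with Plk2 and 0.34 for Mdm2 with Ccng1. Over males and over females r was 0.57 and 0.12 for Mdm2 with Ccng1, 0.45 and 0.77 for Ccng1 with Plk2, 0.57 and 0.35 for Cdkn1a with Plk2, and 0.51 and 0.58 for Mdm2 with Plk2. Over the 43 mice without both female libraries whose Kif3a went against the label, r was 0.49 for Ccng1 with Plk2, 0.38 for Mdm2 with Ccng1, 0.51 for Cdkn1a with Plk2 and 0.54 for Mdm2 with both Cdkn1a and Plk2. Over the 19 females left, r was 0.64 for Ccng1 with Plk2, 0.62 for Mdm2 with Plk2, 0.32 for Cdkn1a with Plk2, 0.29 for Mdm2 with Cdkn1a and 0.041 for Mdm2 with Ccng1. No test was run within a sex or without those libraries. Cdkn1a with Ccng1 did not pass (r = 0.20, adjusted 0.333; rho 0.18, adjusted 0.325), and nor did any pair with Trp53 (r from -0.15 to 0.28, lowest adjusted permutation p 0.102; rho from -0.15 to 0.29, lowest adjusted 0.0942).

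Cdkn1a lies on the chromosome of Pkd1, with its start 4.49 Mb from the end of Pkd1. Noncystic mice have 1 floxed Pkd1 chromosome and both mutant groups have 2, so that DNA flanking the floxed allele differs between them and, for Cdkn1a, cannot be told apart from the loss of Pkd1. Within 1 Mb of Cdkn1a 36 other genes were tested, and 2 of them (5.56%) were called in Pkd1KO against noncystic males, with a median log2 fold change of -0.01. Those 2 were Rab44, whose start lies 0.0232 Mb from that of Cdkn1a (1.49, SE 0.30, adjusted p = 0.00626), and Mdga1 (1.24, SE 0.29, adjusted p = 0.0172), followed by Armc12 (-1.31, SE 0.42, adjusted p = 0.0758). In Pkd1KO+ciliaKO against noncystic males 1 of the 36 was called (2.78%), and in the same comparisons of females 4 (11.1%) and 0. Those 4 were Rab44 (1.29, adjusted p = 0.0115) and Mdga1 (0.85, adjusted p = 0.0466), both higher, and Def6 (-0.42, adjusted p = 0.0156) and Armc12 (-2.13, adjusted p = 0.0468). In Pkd1KO against Pkd1KO+ciliaKO mice 1 of the 36 was called in each sex (2.78%). It was Rab44, higher in Pkd1KO males (1.07, adjusted p = 0.0410) and females (1.06, adjusted p = 0.0252). Within 5 Mb of Pkd1, 22 of 197 genes were called in Pkd1KO against noncystic males (11.2%; 8 higher and 14 lower, with Cdkn1a among the 8) and 29 in Pkd1KO+ciliaKO against noncystic males (14.7%; 17 higher and 12 lower), which are larger shares than the 6.30% and 8.89% of all genes. No test of those shares was made. Between Pkd1KO and Pkd1KO+ciliaKO males, which both carry 2 floxed Pkd1 alleles, 1 of the 197 was called higher and 2 lower (1.52%, against 3.77% of all genes). In females 9.09% of 198 genes within 5 Mb of Pkd1 were called in Pkd1KO against noncystic mice (3 higher and 15 lower, against 3.34% of all genes), 8.59% in Pkd1KO against Pkd1KO+ciliaKO mice (7 higher and 10 lower, against 11.7%) and 3.54% in Pkd1KO+ciliaKO against noncystic mice (1 higher and 6 lower, against 2.54%).

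**Figure D5:**
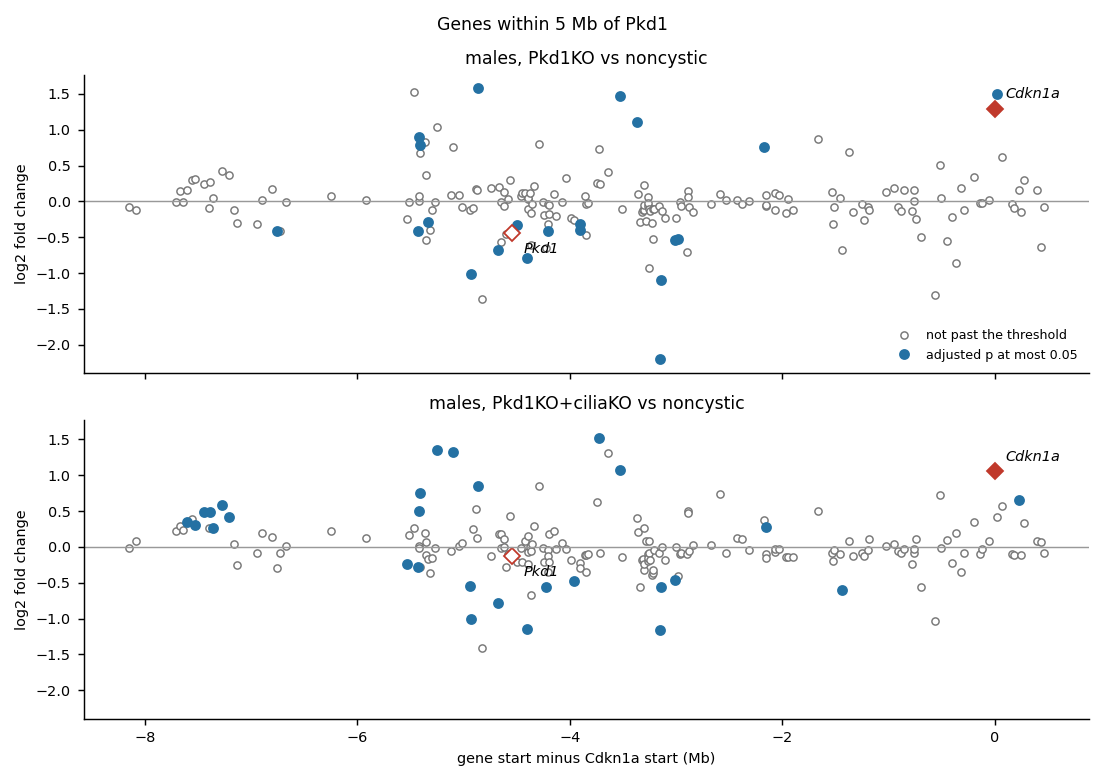
Log2 fold change (vertical axis) against the distance of each gene's start from that of Cdkn1a in Mb (horizontal axis) for the tested genes within 5 Mb of Pkd1, in Pkd1KO (upper) and Pkd1KO+ciliaKO (lower) against noncystic males; filled symbols passed an adjusted p of 0.05 and diamonds mark Cdkn1a and Pkd1. Called genes lie on both sides of 0, and within 1 Mb of Cdkn1a the median of 36 genes is -0.01 in the upper panel.

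The counts of Cdkn1a and Cdkn1c could include reads of genes on the other strand, since the counting is not stated here to use strand. In GENCODE vM21, exons of AC167363.2 share 273 of the 3553 exon bases of Cdkn1a (7.68%), and exons of Gm44732 share 30.7% of the 2039 of Cdkn1c. The overlapping genes themselves had at most 18 counts (AC167363.2) and 1 count (Gm44732) in any mouse, where Cdkn1a had 846 to 8318 and Cdkn1c 269 to 1326.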

How the data were processed

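Gene counts per mouse were deposited by the authors as raw featureCounts 2.0.0 output over exons of GRCm38.p6, from 150 bp paired reads trimmed with fastp 0.20.0 and aligned with STAR 2.7.9, without pooling. Strand and multimapping settings are not given in the sources used here. The deposited TPM values were made by the authors from genes that reached 6 counts in no fewer than 20% of males or females and then reduced to protein-coding genes, which is the set tested here (15991 in males, 15968 in females). The deposited tables also give a gene length, which was not used in any test. Gene names and positions came from GENCODE vM21, which matched 55141 of 55401 genes, and promoters from RefSeq.

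Each comparison was tested within a sex and between its 2 genotypes with edgeR 4.0.16 (glmQLFit and glmQLFTest, TMM, R 4.3.3) and Benjamini-Hochberg adjustment over all genes tested. Sex differences were tested in 1 fit of all 45 mice as interaction terms, and the noncystic contrast between the sexes in the same fit, added after the data were seen. DESeq2 1.42.0, limma 3.58.1 and other settings were alternatives. Correlations used log2(CPM + 0.1) in Python 3.11.15 with numpy 2.4.6 and scipy 1.17.1. The scripts were tested on simulated counts. Each mouse is 1 replicate, named by its group and number. The members and gene lists were chosen with earlier results of these data known. Genes outside the members were named by rule: listed genes past the threshold, up to 4 of the smallest p per list and comparison, the targeted genes Pkd1 and Kif3a, the 3 genes most like each member, and the neighbours of Cdkn1a; markers of other cell types named beside a result were chosen after their values were seen. The count limit given for Cdkn2a covers counting error only. Each SE comes from the fit over mice and includes variation between them.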

Additional observations from a re-analysis of the deposited data

Results flagged for a closer look

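In 60 tests, each of 1 gene in 1 group, the highest or lowest mouse stood apart from the others by Dixon's test in 7, and chance alone gives about 1 in 20. Pkd1KO+ciliaKO female replicate 1 was highest for both Cdkn1b (71.2 normalized CPM, next 53.6) and Cdkn2b (14.0, next 7.32). Pkd1KO male replicate 4 was highest for Trp53 (36.04 CPM, next 28.7). For Plk2, noncystic male replicate 8 (31.3 CPM, next 21.8) and Pkd1KO+ciliaKO male replicate 2 (49.8, next 35.8) stood apart. The remaining 2 were Cdkn2a in noncystic male replicate 1 (0.0457 CPM, next 0.0198) and noncystic female replicate 3 (0.0850, next 0.0184), which rest on 5 and 8 counts. No explanation of these values was tested.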

How the results depend on the processing

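The number of the 9 genes called moved under these alternatives. In Pkd1KO against noncystic males it was 3, and 1 (Cdkn2c) in limma on log2(TPM + 1), 2 (Cdkn2c and Cdkn1a) on log2(TPM + 0.1) and 4 in DESeq2, which added Ccng1. In Pkd1KO against Pkd1KO+ciliaKO males it was 0, and 2 (Mdm2 and Ccng1) in DESeq2, limma voom with sample weights and limma on log2(TPM + 1) and log2(TPM + 0.1), and 1 (Ccng1) with 3 genotypes in one fit and without the 4 males towards the females. In Pkd1KO+ciliaKO against noncystic males it was 3, 5 in limma voom, which added Cdkn2c and Mdm2, and 4 in DESeq2, on both TPM scales and without the 4 males, each adding Cdkn2c. In Pkd1KO against noncystic females it was 1, and 2 in DESeq2, which added Cdkn1a. In Pkd1KO+ciliaKO against noncystic females it was 0, where 2.54% of all genes were called. It was 1 (Ccng1) without both libraries whose Kif3a went against the label, where 5.80% were. The cause was not tested.

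Leaving out 1 mouse gave 3 to 4 called genes in Pkd1KO against noncystic males, 0 to 1 against Pkd1KO+ciliaKO males and 3 to 4 in Pkd1KO+ciliaKO against noncystic males. In females it gave 0 to 1, 0 to 0 and 0 to 1 in the same order, the last 1 being Ccng1 without noncystic female replicate 5. Cdkn1a, Plk2 and Cdkn2c in Pkd1KO males were called in all 15 such fits, and Ccng1, Cdkn1a and Plk2 in Pkd1KO+ciliaKO males in all 17.

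Replicate numbers are shared between groups. Of the 6 to 8 same-numbered pairs per comparison, 1 to 3 had a correlation over 0.1 (range -0.329 to 0.363). The medians per comparison ran from -0.0761 to 0.110. Pairs of different numbers were not set beside them, so a shared litter or batch was not tested. With the replicate number as a block, 0 genes were called in Pkd1KO against noncystic females, Mdm2 turned to 0.045 in Pkd1KO against noncystic males and Trp53 to 0.027 in Pkd1KO against Pkd1KO+ciliaKO females, and the count of calls moved in no other comparison.

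Directions turned only for log2 fold changes that were not called. In Pkd1KO against Pkd1KO+ciliaKO males Cdkn1a was -0.029 in limma voom and -0.000134 on log2(TPM + 0.1), Plk2 was -0.13 in voom, -0.064 and -0.069 on log2(TPM + 1) and log2(TPM + 0.1), and -0.047 without the 4 males, where Cdkn2b was 0.00739. On these TPM scales, in the same order, Trp53 was 0.045 and 0.047 in Pkd1KO+ciliaKO against noncystic males and 0.088 and 0.091 in females, Mdm2 0.00284 and 0.00285 in Pkd1KO against noncystic females, and Cdkn1c -0.00704 and -0.00824 and Cdkn2c -0.0138 and -0.0145 in Pkd1KO against Pkd1KO+ciliaKO females. Mdm2 was -0.022 in voom in Pkd1KO+ciliaKO against noncystic females. Without both female libraries the male minus female difference was -0.043 for Ccng1 (Pkd1KO against noncystic), 0.012 for Trp53 (Pkd1KO+ciliaKO against noncystic) and 0.0198 for Ccng1 in noncystic mice, and 0.0187 also without the 4 males.

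When 1 mouse was left out, these ranges crossed 0: in males Mdm2 in Pkd1KO against noncystic mice (-0.067 to 0.047), Plk2 in Pkd1KO against Pkd1KO+ciliaKO mice (-0.070 to 0.19) and Cdkn1c in Pkd1KO+ciliaKO against noncystic mice (-0.00255 to 0.26). In females they were Cdkn1b (-0.052 to 0.00988) and Cdkn2b (-0.00148 to 0.14) in Pkd1KO against noncystic mice, Cdkn1c (-0.00292 to 0.21), Trp53 (-0.068 to 0.012) and Ccng1 (-0.12 to 0.014) in Pkd1KO against Pkd1KO+ciliaKO mice, and Cdkn1c in Pkd1KO+ciliaKO against noncystic mice (-0.067 to 0.15). Of all other values, 511 under other settings and 780 with 1 mouse left out kept direction and side of the threshold, 19 and 9 newly passed it, and 4 and 10 no longer did. Depth limited Cdkn2a alone, with at most 10 counts per mouse.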
